A study of Mus musculus with 4 samples.

Results

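The unfolded protein response (UPR) of the endoplasmic reticulum (ER) was examined in the sciatic nerve through 37 genes, which were selected by gene symbol from the 50593 genes of the expression table and were all found in it. RNA sequencing was performed on sciatic nerve of HSF V30M and HSF WT mice, all 6 months old and of strain 129S1/SvImJ. HSF V30M mice carry a transgene for human transthyretin (TTR) with the V30M mutation, lack the endogenous Ttr gene, and have a heterozygous deletion of Hsf1, the gene for heat shock factor 1. HSF WT mice have the same heterozygous Hsf1 deletion and no transgene. The transgene and the loss of mouse Ttr differ together between the groups and cannot be told apart, and the promoter of the transgene is not given in the sources used here. The labels list 2 samples per group, while the methods give n = 4 without saying whether this is per group. Each gene has 1 value per group, an FPKM (fragments per kilobase of transcript, adjusted for how deeply the libraries were sequenced) that the authors obtained from Cuffdiff. No value per mouse was available, so no comparison below has a replicate check, and no p-value is given.

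Mouse Ttr was listed at 0 in HSF WT and was at 6.10 FPKM in the group labelled HSF V30M, whose Ttr is null. Read as mouse Ttr alone, these values would go against the labels. Reads of the human transgene and of mouse Ttr are not separated in the table, and their part in this value was not tested. Every direction given below rests on the labels as deposited. Hsf1 was at 7.94 FPKM in the group labelled HSF V30M and at 15.0 in HSF WT, although both groups have 1 deleted allele by design. Nerve identity was clear in both groups. Mbp, which encodes myelin basic protein, had 3854 FPKM in HSF V30M and 3441 in HSF WT. Most low values lay near sums of whole fragments of 2 libraries per group, a number of libraries that was assumed. On this reading the 2 HSF WT libraries were 1.35-fold apart in depth and the 2 HSF V30M libraries 1.18-fold apart. From this, the fragments behind each UPR gene were estimated on its shortest coding transcript, and the fewest were 12. The intervals given for ratios are 95% exact binomial (Clopper-Pearson) intervals on that estimate. They cover counting error only and hold no spread between mice.

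Proteins that are secreted or placed in membranes fold in the ER. When unfolded protein accumulates there, it is sensed by 3 membrane proteins, IRE1 (gene Ern1), PERK (Eif2ak3) and ATF6. IRE1 splices the Xbp1 mRNA, ATF6 is cut to release a transcription factor, and PERK slows translation while favouring that of Atf4. The factors made in this way raise transcription of ER chaperones, folding enzymes, ER-associated degradation (ERAD) and amino acid metabolism. Schwann cells make large amounts of myelin membrane protein through the ER, and TTR is itself a secreted protein. A gene-level FPKM measures neither the splicing of Xbp1 nor the cleavage of ATF6 nor the translation of Atf4.

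All 37 genes had a mean of at least 1 FPKM, the minimum used for ratios. Their levels ran from 1.24 FPKM (Chac1) to 117 (Calr) in HSF V30M and from 0.917 (Chac1) to 193 (P4hb) in HSF WT. P4hb, Calr, Hspa5 and Hsp90b1 were the most abundant in HSF WT and made up 40.3% of the summed FPKM of the 37 genes there, against 32.9% in HSF V30M. The 10 most abundant genes were the same 10 in both groups. In sum, the 37 genes reached 1260 FPKM in HSF V30M and 1498 in HSF WT, which is 15.8% lower. Of the difference of 237 FPKM, 189 came from the 4 most abundant genes, and the other 33 summed to 845 and 894 FPKM.

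**Figure D1:**
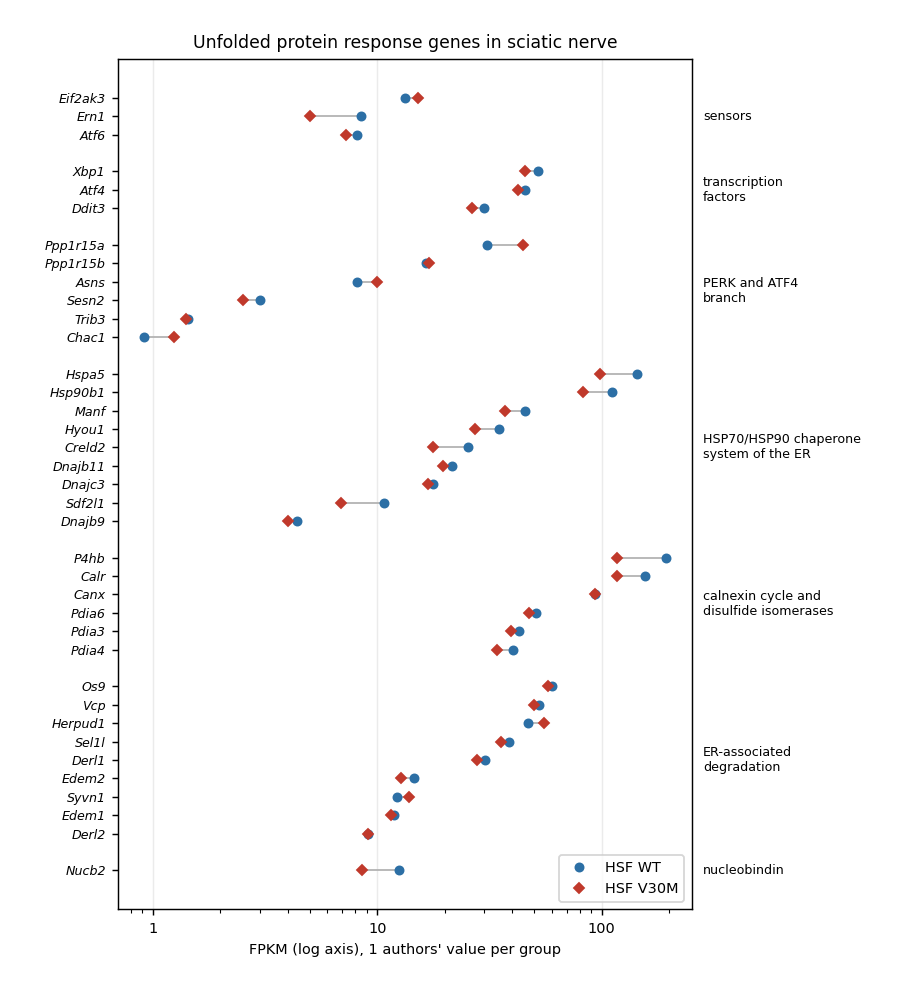
FPKM of the 37 UPR genes on a log axis, 1 authors' value per group, with HSF V30M as red diamonds and HSF WT as blue circles, ordered by role and by level within a role. The abundant chaperones Hspa5, Hsp90b1, P4hb and Calr lie to the left in HSF V30M, and Ppp1r15a lies to the right (44.6 against 30.8 FPKM).

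In HSF V30M, 29 of the 37 genes (78.4%) had the lower value and 8 the higher, where Derl2, with a log2 ratio of 0.00, is counted as lower and turned to the other side under median-of-ratios scaling. Among all 15620 genes with a mean of at least 1 FPKM, 49.6% were lower, and among the 12715 protein-coding ones, 49.8%. Ratios were taken as log2((HSF V30M + 1)/(HSF WT + 1)). The median log2 ratio of the 37 genes was -0.12, beside 0.00 for all genes, and the range ran from -0.72 to 0.52. The shift was therefore small for most genes. On this scale, which adds 1 to both values, P4hb and Ern1 (5.41% of the 37) were lower by more than 1.5-fold and no gene was higher by as much, beside 8.44% of all genes lower and 8.22% higher at that size. The share past 1.5-fold was thus not above that of genes at large. Sdf2l1 was also past 1.5-fold in plain FPKM, and 3 genes were lower past it with a pseudocount of 0.1. At a smaller threshold, a log2 ratio beyond 0.32 in either direction, 9 genes (24.3%) were lower, namely P4hb, Ern1, Sdf2l1, Hspa5, Nucb2, Creld2, Hsp90b1, Calr and Hyou1, and only Ppp1r15a (2.70%) was higher. At this threshold 17.7% of all genes were lower and 18.4% higher, and 14.9% of protein-coding genes were lower. Abundant genes vary less by chance of sampling, so the same threshold was applied at a mean of at least 20 FPKM, a minimum added after seeing the data. There 6 of 21 UPR genes (28.6%) were lower and 1 was higher, beside 14.6% of all such genes lower and 18.5% higher.

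**Figure D2:**
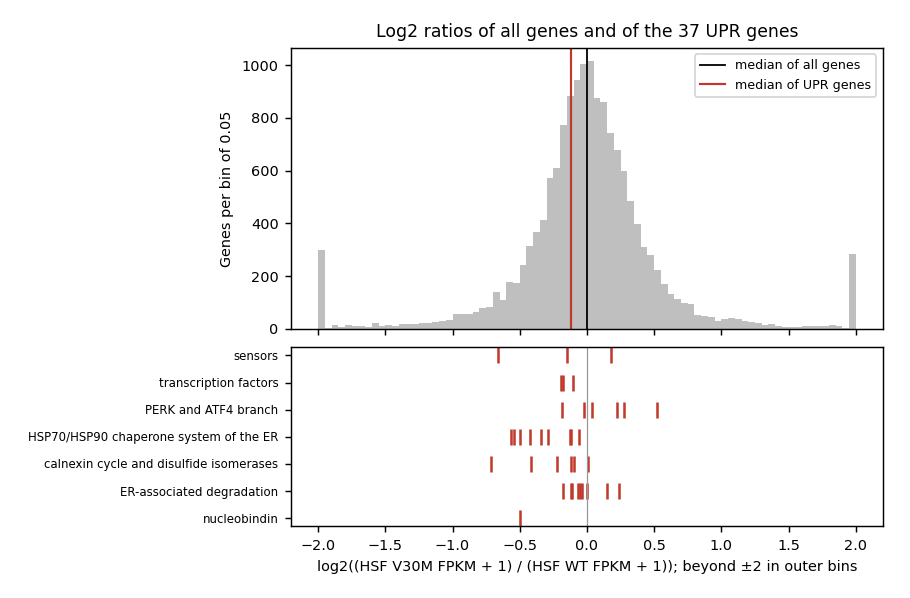
Log2 ratios of HSF V30M over HSF WT for all 15620 genes of mean FPKM at least 1 (upper panel, number of genes per bin, genes beyond 2 on either side in the outer bins) and for the 37 UPR genes by role (lower panel, 1 tick per gene). The median of the UPR genes (red line, -0.12) lies left of that of all genes (black line, 0.00), and all 9 ticks of the HSP70 and HSP90 chaperone system lie below 0.

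Genes that ATF6 and XBP1 act on often carry an ER stress response element (ERSE) in the promoter, which is CCAAT, then 9 bases of any kind, then CCACG. Promoter windows from 250 bases before to 50 bases after the gene start were available from RefSeq (GRCm38.p6) for 32 of the 37 genes, with none for Atf6, Derl1, Hyou1, Manf and Ppp1r15b. On either strand, ERSE was found in 8 of the 32 (25%), beside 37 of 27025 genes with a window (0.137%) and 17 of 10189 of those with a mean of at least 1 FPKM (0.167%). ERSE contains the letters of both parts. On its own, CCAAT was in 81.3% of the 32 windows, beside 41.1% of all windows and 42.3% of those of genes with a mean of at least 1 FPKM. CCACG was in 84.4%, beside 35.5% and 51.6%. ACGTGG, the core bound by XBP1, whose reverse complement holds CCACG, was in 25%, beside 9.40% and 13.2%. TGATG followed by 1 base and AA, the core of the element that ATF4 binds, was found in 4 of the 32 (Asns, Chac1, Herpud1 and Trib3), beside 4.51% and 2.79%. A match is a description of the letters and not evidence of binding. The 8 genes are shown because they include 4 of the most clearly lower chaperones beside 4 that hardly differed. Each line runs 5′ to 3′ on the strand of the gene and has the parts CCAAT and CCACG in capitals, or ATTGG and CGTGG where the element lies on the opposite strand.
Hspa5 (chr2:34772020-34772048, plus strand): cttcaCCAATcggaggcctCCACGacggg
Calr (chr8:84847055-84847113, minus strand): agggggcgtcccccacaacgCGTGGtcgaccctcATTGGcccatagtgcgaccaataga
Hsp90b1 (chr10:86705513-86705676, minus strand): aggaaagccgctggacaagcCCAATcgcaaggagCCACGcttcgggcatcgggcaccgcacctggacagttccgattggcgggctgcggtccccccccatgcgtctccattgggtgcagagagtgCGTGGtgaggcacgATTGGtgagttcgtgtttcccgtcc
Creld2 (chr15:88819500-88819558, plus strand): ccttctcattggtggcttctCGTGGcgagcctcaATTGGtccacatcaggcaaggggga
Pdia6 (chr12:17266471-17266529, plus strand): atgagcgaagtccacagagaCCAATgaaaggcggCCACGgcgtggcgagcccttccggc
Dnajc3 (chr14:118937807-118937865, plus strand): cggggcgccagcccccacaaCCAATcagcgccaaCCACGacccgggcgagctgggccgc
Canx (chr11:50325780-50325838, minus strand): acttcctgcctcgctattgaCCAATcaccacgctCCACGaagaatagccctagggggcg
Syvn1 (chr19:6046512-6046570, plus strand): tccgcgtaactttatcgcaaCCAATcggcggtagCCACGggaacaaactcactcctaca

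Hspa5, Creld2, Hsp90b1 and Calr had log2 ratios of -0.54, -0.50, -0.42 and -0.41. Pdia6, Dnajc3, Canx and Syvn1, with the same element, had -0.10, -0.06, 0.01 and 0.15. Hsp90b1 was the only one with 2 matches, on opposite strands. The median of the 8 genes was -0.25, and that of the 24 with a window and no ERSE was -0.12. Past the smaller threshold, 4 of the 8 were lower and 0 higher, and 4 of the 24 were lower and 1 higher. ERSE was found in 17 genes with a mean of at least 1 FPKM, which include these 8. Past the same threshold, 6 of the 17 were lower and 1 higher. Of 10177 genes at that minimum with a window and no ERSE, 1524 were lower and 1591 higher. Of all genes, with or without a window, 17.7% were lower and 18.4% higher. Lower genes were thus found both with and without ERSE. An association between ERSE and the ratio was not tested.

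**Figure D3:**
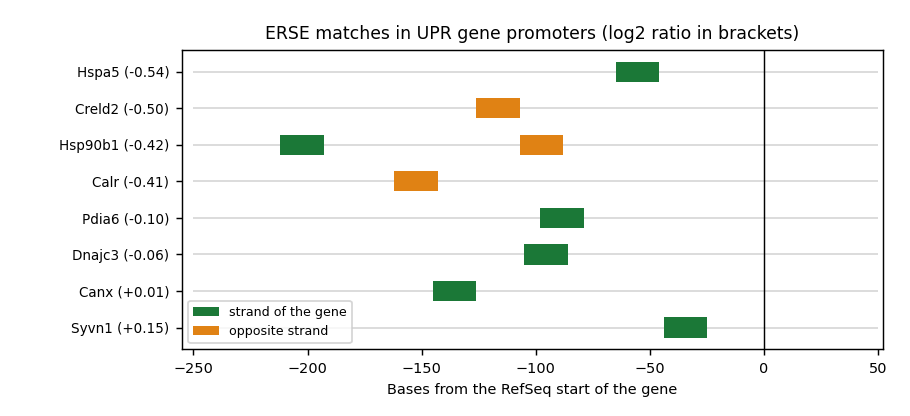
Position of each ERSE match in the promoters of 8 UPR genes, in bases from the RefSeq start of the gene, in green on the strand of the gene and in orange on the opposite strand, with its log2 ratio (HSF V30M over HSF WT) in brackets. All matches lie before the start, and genes are ordered from the lowest ratio (Hspa5) to the highest (Syvn1).

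The sensors of the response did not differ in 1 direction. Ern1 (ENSMUSG00000020715, chr11:106394650-106487852 of GRCm38, minus strand) encodes IRE1 alpha, the kinase and ribonuclease that splices Xbp1. It was at 5.0 FPKM in HSF V30M and 8.51 in HSF WT, 58.8% of the HSF WT level, with a ratio interval of 0.395 to 0.872 on 49 and 60 fragments. Atf6 was at 7.28 and 8.17 FPKM, with an interval of 0.815 to 0.975. Eif2ak3, which encodes the translation-slowing kinase PERK, was the higher one, with 15.2 and 13.3 FPKM, and its interval of 0.924 to 1.41 holds a ratio of 1. Ern1 had the second-lowest log2 ratio of the 37 genes, at -0.66.

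The 3 transcription factors were all slightly lower, with none past the threshold of 0.32. Xbp1, whose spliced mRNA encodes the factor for ER chaperones and lipid synthesis, was at 45.6 FPKM in HSF V30M and 52.3 in HSF WT. Atf4, the factor for amino acid and redox genes, had 42.3 and 45.5 FPKM. Ddit3, which encodes CHOP, a factor tied to cell death under lasting stress, had 26.3 and 29.8. The interval of Xbp1, 0.779 to 0.977, lies under 1, while those of Atf4 (0.802 to 1.08) and Ddit3 (0.723 to 1.08) hold 1. The exons of Ddit3 overlap those of Mars and of a second Ddit3 model, so its reads may have been split.

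Genes of the PERK and ATF4 branch had the only role median above 0, at 0.13, with 4 of 6 higher, and summed to 76.8 FPKM in HSF V30M and 60.8 in HSF WT. Most of that difference was Ppp1r15a (ENSMUSG00000040435, chr7:45522916-45526268, minus strand), which encodes GADD34, the phosphatase subunit that restarts translation after PERK has slowed it. Ppp1r15a was at 44.6 FPKM in HSF V30M against 30.8 in HSF WT. This is 145% of the HSF WT level, with an interval of 1.12 to 1.88. Ppp1r15b, its paralogue that acts without stress, was nearly level at 17.0 and 16.5 FPKM. An exon of Ppp1r15a overlaps Tulp2 on the opposite strand, and the table places 6 other genes in its locus. The targets of ATF4 went both ways. Asns, which makes asparagine, had 10 and 8.09 FPKM, and Chac1, which degrades glutathione, had 1.24 and 0.917. Sesn2, an inhibitor of mTORC1 signalling, was at 2.52 and 2.99, and Trib3, a pseudokinase that feeds back on ATF4, at 1.4 and 1.43. All 4 intervals hold 1, the widest being that of Chac1 at 0.767 to 2.45 on 38 and 20 fragments. On these estimates, which use the shortest coding transcript, a difference in these 4 targets was not detectable. For Asns the estimate ran from 50 to 462 fragments in HSF V30M and from 29 to 305 in HSF WT. An interval on the longer transcript was not worked out.

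The chaperone system built around HSP70 and HSP90 of the ER lumen had lower values throughout. All 9 genes had the lower value in HSF V30M, beside 49.6% of all genes. Past the threshold of 0.32, 5 were lower, beside 17.7% of all genes. The median log2 ratio was -0.34, and the summed level was 311 FPKM in HSF V30M against 415 in HSF WT. The intervals of Manf, Dnajb11, Dnajc3 and Dnajb9 hold 1, as described below. Hspa5 (ENSMUSG00000026864, chr2:34771970-34777547, plus strand) encodes BiP, the HSP70 of the ER that also holds the 3 sensors inactive. It was at 98.5 FPKM in HSF V30M and 144 in HSF WT, 68.5% of the HSF WT level. Its interval was 0.659 to 0.712 on 5132 and 5355 fragments, and 0.607 to 0.772 on the 536 and 559 fragments that its shortest annotated transcript of any type would give. Hsp90b1, which encodes the HSP90 of the ER (GRP94), was at 82.9 and 111 FPKM, with an interval of 0.695 to 0.798. Its exons overlap 3 other annotated genes, among them 1810014B01Rik on the opposite strand. Both of these carry ERSE, as printed above.

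The partners of BiP were lower to unequal degrees. Sdf2l1, part of a chaperone complex with BiP co-factors, was at 6.91 FPKM in HSF V30M against 10.7 in HSF WT, or 64.5%, on 136 and 150 fragments. Creld2, an ER-stress-inducible protein with disulfide isomerase activity, was at 17.8 and 25.5 FPKM, or 69.7%. Hyou1, which encodes the nucleotide exchange factor GRP170, had 27.4 and 34.9 FPKM, or 78.4%. The intervals of these 3 genes lie under 1 (0.508 to 0.819, 0.611 to 0.796 and 0.642 to 0.957). Manf, a secreted protein that binds BiP, had 36.9 and 45.4 FPKM, with an interval of 0.625 to 1.06. It shares its table locus with 11 other genes. The J-domain co-chaperones, which bring substrates to BiP, differed least. Dnajb11 was at 19.7 and 21.5 FPKM, Dnajc3 at 16.9 and 17.7, and Dnajb9 at 3.99 and 4.41, each with an interval that holds 1. That of Dnajb9 was 0.401 to 2.09, and so no difference in this gene could be seen at this depth.

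The calnexin cycle and the disulfide isomerases split by gene. P4hb (ENSMUSG00000025130, chr11:120560298-120573253, minus strand) encodes protein disulfide isomerase, which also serves as the beta subunit of collagen prolyl 4-hydroxylase. It was the most abundant UPR gene of HSF WT, with 117 FPKM in HSF V30M and 193 in HSF WT. This is 60.7% of the HSF WT level, with an interval of 0.565 to 0.651 on 1438 and 1694 fragments. Its log2 ratio of -0.72 lay at percentile 6.35 of all genes. No other annotated exon overlaps P4hb. Calr, the soluble lectin chaperone calreticulin (ENSMUSG00000003814, chr8:84841850-84846934, minus strand), was at 117 and 156 FPKM, or 74.9%, with an interval of 0.720 to 0.780. Canx, the membrane-bound lectin calnexin that binds the same sugar chains, was level at 93.6 and 92.9 FPKM, with an interval of 0.972 to 1.04. These intervals do not overlap on coding transcripts, but do on the shortest transcripts of any type (0.693 to 0.810 for Calr and 0.737 to 1.38 for Canx).

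The other isomerases were a little lower. Pdia4 had 34.2 FPKM in HSF V30M against 40.1 in HSF WT, with an interval of 0.794 to 0.918. Pdia3, the partner of calnexin and calreticulin for glycoproteins, had 39.3 and 42.8 FPKM. Pdia6 had 47.5 and 50.8. Each of these stayed within 0.32 on the log2 scale, while P4hb did not.

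Genes of ERAD, which carries misfolded protein back to the cytosol for the proteasome, were nearly level as a group. They summed to 274 FPKM in HSF V30M against 276 in HSF WT, with 7 of 9 lower, a median log2 ratio of -0.06 and none past the threshold of 0.32. Herpud1, which gathers the degradation complex at the membrane, was the one higher gene with an interval above 1, at 55.2 and 46.8 FPKM (1.05 to 1.33). Syvn1, the ubiquitin ligase HRD1, had 13.8 and 12.3 FPKM, with an interval of 0.888 to 1.42, while its adaptor Sel1l had 35.6 and 38.6. The lectin Os9, which recognises trimmed sugar chains, was at 57.9 and 60.2 FPKM, and Vcp, the ATPase that pulls substrates out, at 50.2 and 52.6. The membrane proteins Derl1 and Derl2 had 27.9 and 30.2 FPKM, and 9.09 and 9.10 FPKM. Edem1 and Edem2, which trim the sugars of misfolded glycoproteins, had 11.6 and 11.9, and 12.8 and 14.6. Apart from these roles, Nucb2, which encodes a calcium-binding nucleobindin and the precursor of nesfatin-1, was at 8.54 FPKM in HSF V30M against 12.5 in HSF WT, or 68.3%, with an interval of 0.577 to 0.809.

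**Figure D4:**
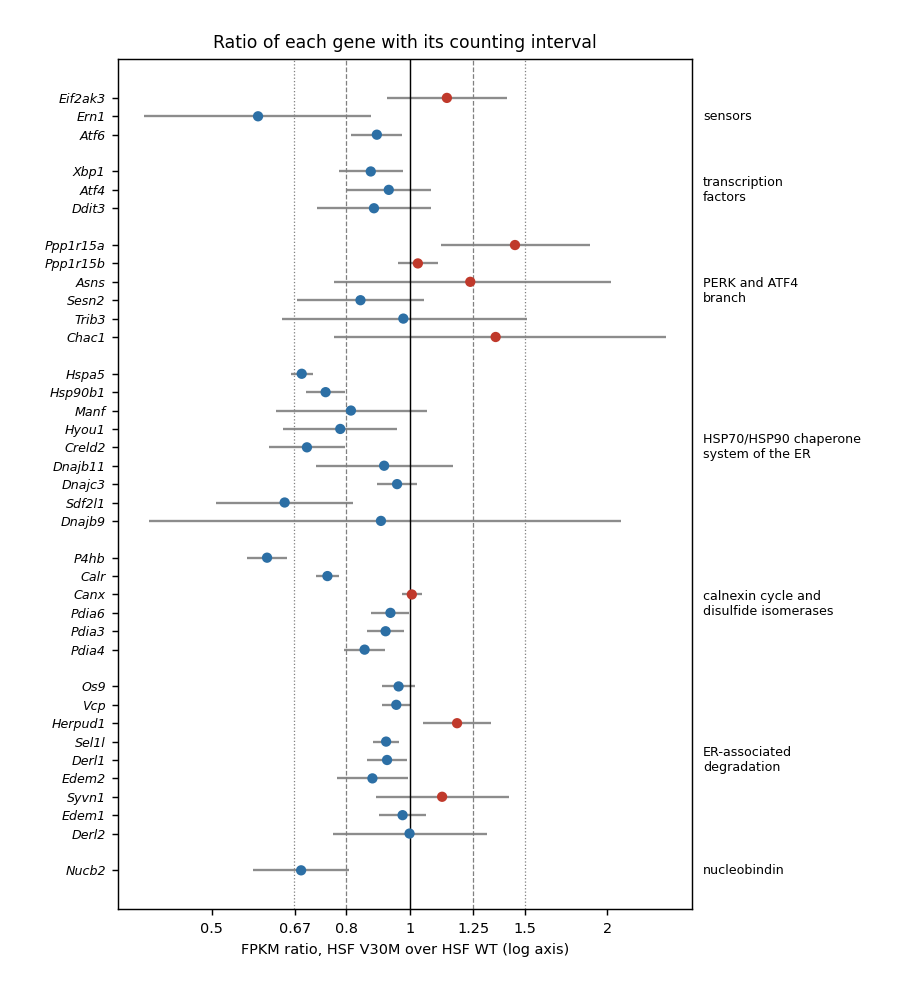
Ratio of HSF V30M over HSF WT FPKM for each UPR gene on a log axis (blue below 1, red above 1), with its 95% counting interval on the shortest coding transcript as a grey line, and a dotted line at 1.5-fold and a dashed line at the smaller fold on either side. The intervals hold no spread between mice. On coding transcripts P4hb, Hspa5, Hsp90b1 and Calr have short intervals below 1, whereas Dnajb9, Asns and Chac1 have the widest.

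On the shortest coding transcript, the counting interval of the 37 genes lay wholly under 1 for 17 and held 1 for 18. It lay wholly above 1 for 2 (Ppp1r15a and Herpud1). Longer coding transcripts, where annotated, would give more fragments, and intervals on them were not worked out. On the shortest transcript of any type, the counts were 9, 2 and 26, and the 9 were P4hb, Calr, Hspa5, Hsp90b1, Xbp1, Hyou1, Creld2, Sdf2l1 and Ern1. The interval of Nucb2 then held 1, on 24 and 25 fragments. Exons of 13 of the genes overlap another annotated gene. Of the 9 genes lower past the smaller threshold, 8 have no such overlap, the exception being Hsp90b1.

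Further genes of the ER and of the wider response were listed by role to see whether the 37 were alone. These include amino acid and ATF4 targets that act outside the ER. Of 91 such genes, 85 had a mean of at least 1 FPKM, with a median log2 ratio of -0.12. In HSF V30M, 60 of these (70.6%) were lower at any size and 25 higher, beside 49.6% of all genes lower. At the threshold of 0.32, 16 (18.8%) were lower and 6 (7.06%) higher, beside 17.7% and 18.4% of all genes. At 1.5-fold, 4 (4.71%) were lower and 3 higher, beside 8.44% and 8.22% of all genes. Past these thresholds, the share of lower genes was thus near that of genes at large (0.32) or below it (1.5-fold). In genes for ER translocation and early secretory transport, 18 of 21 were lower (median -0.20), the most one-sided of these lists. Within it, Sec23b, a coat protein of vesicles that leave the ER, was at 17.7 FPKM in HSF V30M and 27.2 in HSF WT, and Kdelr3, a receptor that returns ER proteins, was higher at 13.3 and 7.96. Among the other ER folding enzymes, 14 of 20 were lower (median -0.13). Dnajc10, a disulfide reductase with a J domain, was at 15.2 and 31.0 FPKM, and Serpinh1, the collagen chaperone HSP47, at 113 and 153. Both P4hb and Serpinh1 serve collagen folding. Of the collagen genes on the fibroblast list, Col1a1 (181 and 152 FPKM) and Col1a2 (314 and 287) were higher, and Col3a1 (219 and 317) was lower. The part of collagen expression in the values of P4hb and Serpinh1 was not tested.

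The other sensors and membrane-bound factors numbered 11 above the minimum, with 7 lower and a median of -0.09. Atf6b, the paralogue of Atf6, was at 14.3 FPKM in HSF V30M and 19.9 in HSF WT, and Eif2ak4, the amino acid sensor GCN2, at 6.74 and 9.03. Ern2, the epithelial paralogue of Ern1, was listed at 0 in both groups. Other ERAD genes were lower in 10 of 15 (median -0.11), with Ufd1l, a partner of Vcp, at 20.6 and 17.0 FPKM. In the list of other amino acid and ATF4 targets, 11 of 18 were lower (median -0.12), and its largest ratios were upward. Slc7a5, an amino acid transporter, was at 37.2 FPKM in HSF V30M and 14.5 in HSF WT, and Ddit4, an inhibitor of mTORC1, at 21.5 and 9.51. Heat shock genes, which HSF1 controls, served as a contrast. They are cytosolic apart from the mitochondrial Hspd1 and Hspe1, and they summed to 514 FPKM in HSF V30M and 556 in HSF WT. Of 10, 4 were lower and 6 higher, with a median of 0.01 (-0.01 at a mean of at least 5 FPKM) and none past the threshold of 0.32. Hsp90aa1 had 102 and 127 FPKM, and Bag3 had 25.5 and 20.7.

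**Figure D5:**
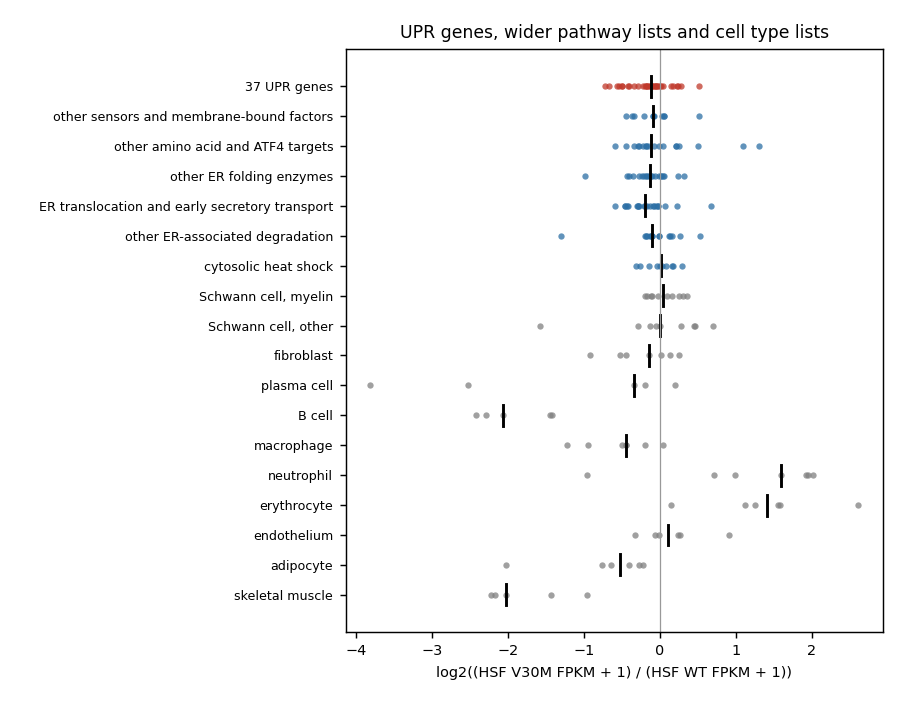
Log2 ratios of HSF V30M over HSF WT for the 37 UPR genes (red), the wider pathway and heat shock lists (blue) and the cell type marker lists (grey), 1 point per gene of mean FPKM at least 1, with the list median as a black bar. The medians of the UPR and wider pathway lists lie between -0.20 and -0.09. Those of B cell and skeletal muscle markers lie near -2, and those of neutrophil and erythrocyte markers above 1.

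Whole nerve holds several cell types, and fewer cells of a type and less RNA per cell cannot be told apart. Secretory cells are rich in UPR genes, so marker lists are given beside the result. Of the plasma cell list, 5 of 7 genes had a mean of at least 1 FPKM and 4 of these were lower, with a summed level of 121 FPKM in HSF V30M and 170 in HSF WT. Xbp1 is itself on that list. Jchain, the joining chain of secreted antibody, was at 2.40 FPKM in HSF V30M and 46.9 in HSF WT, and Mzb1, an ER protein of B lineage cells that works with GRP94, at 0.24 and 6.12. Irf4 had 2.17 and 3.0, and Sdc1 was higher at 69.3 and 60.5. Prdm1 (0.78 and 1.10) and Tnfrsf17 (0.60 and 0.605) were low in both groups. All 5 B cell genes above the minimum were lower, and they summed to 3.94 and 30.7 FPKM. None of these markers was at 0 in either group.

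Markers of other cell types differed as well. The macrophage list summed to 389 FPKM in HSF V30M against 591 in HSF WT with 6 of 7 genes lower, and the adipocyte list to 1273 and 1898 with all 6 lower. Skeletal muscle markers summed to 39.1 and 143 FPKM, with all 5 above the minimum lower. Neutrophil markers summed to 107 and 32.3 FPKM with 6 of 7 higher, and erythrocyte markers to 291 and 101 with all 6 higher. The 10 Schwann cell myelin genes summed to 13108 and 11725 FPKM, with a median log2 ratio of 0.04. The 9 other Schwann cell genes summed to 671 and 509 FPKM, with a median of 0.00 and 3 of them higher past the threshold of 0.32. S100b was at 328 and 201 FPKM, and Gfap at 2.28 and 8.77. Fibroblast and endothelial medians were -0.15 and 0.11. The part of these cell types in the UPR values was not tested.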

How the data were processed

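RNA libraries were made from sciatic nerve with Ion Torrent protocols. Per the labels, STAR, Cufflinks and Cuffdiff were used with GRCm38, without versions. The deposited table holds 1 FPKM value per gene and group, estimated by the authors with Cuffdiff over the libraries of a group and written with decimal commas. Its other columns hold the authors' own comparison (log2 fold change, test statistic, p-value, q-value and call), which were not used. Of 50593 genes, 23 had no estimate because of too many alignments and were not used.

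Ratios were taken with a pseudocount of 1, which understates differences of low genes, for genes with a mean of at least 1 FPKM, and genes past 1.5-fold or past 0.32 on the log2 scale were counted. With 1 value per group no test could be made here. The UPR genes and the lists were chosen with earlier results of these data known. Named were all UPR genes, the 2 genes of largest ratio with a mean of at least 5 FPKM in each wider list, and cell type, Ttr and Hsf1 values; Col1a1, Col3a1 and other genes outside this rule were chosen after their values were seen. Some genes that this rule names are not reported here.

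Depth was read from single-transcript genes of 400 to 1000 bases, with 200 bases taken off. The FPKM times effective kilobases of 1 fragment was 0.0393 and 0.0463 in the HSF V30M libraries (91.3% of 761 values within 5% of whole fragments) and 0.0481 and 0.0648 in the HSF WT libraries (98.1% of 732 within 2%). Whole fragments were taken as sums over both libraries of a group, and the share expected by chance was not worked out. The libraries could not be matched to mice. Fragments behind a gene were taken as a range over its coding transcripts in GENCODE M21. Scripts were tested on simulated data. The tools were scipy 1.17.1, pandas 2.3.3, matplotlib 3.10.9 and numpy 2.4.6 under Python 3.11.15. Alternatives were a pseudocount of 0.1, minimum means of 5 and 20 FPKM or none, median-of-ratios scaling, the smaller threshold and a fold of 2, protein-coding genes only, other transcript lengths, and the UPR genes without exon overlap.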

Additional observations from a re-analysis of the deposited data

How the results depend on the processing

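No paired analysis was possible because mice have no values of their own in the deposited table. Leaving out single mice and a limma fit were not run on that account. The C-terminal retention signals of the proteins were not analysed here. The median log2 ratio of the 37 UPR genes was -0.12 as reported and between -0.14 (the 24 genes without exon overlap, added after seeing the data) and -0.11 (median-of-ratios scaling, factors 0.9986 and 1.001) under 6 alternatives. The medians of role groups and wider pathway lists kept their direction. That of the heat shock list, 0.01 as reported, was -0.01 at a mean of at least 5 FPKM. Of 144 comparisons of single UPR genes 143 kept theirs; the exception was Derl2, at 0.00 under median-of-ratios scaling. The number of UPR genes lower past 1.5-fold, 2 as reported, was 3 with a pseudocount of 0.1, 1 at a mean of at least 20 FPKM (added after seeing the data), 0 past 2-fold and 9 past the threshold of 0.32, where 1 was higher. Over all genes, 1319 were lower and 1284 higher past 1.5-fold. These became 646 and 732 at a mean of at least 5 FPKM, 251 and 353 at 20, 616 and 621 past 2-fold, 2766 and 2880 past 0.32, and 676 and 639 among protein-coding genes, all stricter or looser by construction. The fewest fragments behind a UPR gene were 12 as reported, 27 with the longest coding transcripts and the smaller worth of 1 fragment, and 7 with the shortest transcript of any type. On the shortest coding transcripts, depth limits Dnajb9, Asns, Chac1 and Trib3. The missing spread between mice limits every value.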

Other observations

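Paralogues of UPR genes differed in level and ratio, and those outside the naming rule were chosen after their values were seen. Derl3, a Derlin of secretory cells, was at 5.64 FPKM in HSF WT and 1.70 in HSF V30M, a log2 ratio of -1.30, while Derl1 and Derl2 had -0.11 and 0.00. Sdf2, the paralogue of Sdf2l1 that is not induced by ER stress, was at 23.6 and 26.9 FPKM, a log2 ratio of -0.18 beside -0.57 for Sdf2l1. Edem3 had 10.1 and 10.9 FPKM, near the ratios of Edem1 and Edem2.

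The aminoacyl-tRNA synthetase genes on the list of ATF4 targets, Aars, Gars, Nars, Sars and Wars, were lower, with log2 ratios of -0.59, -0.19, -0.28, -0.28 and -0.44. Aars was at 23.8 FPKM in HSF WT and 15.5 in HSF V30M. On the same list, Psat1, Shmt2 and Mthfd2, enzymes of serine and folate metabolism, had 0.21, 0.22 and 0.25. These genes were also chosen after their values were seen, and no value per mouse was available.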
